A study of Mus musculus with 4 samples.

Results

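*Cyp1a1* and *Ahrr*, a pair of classical target genes of the aryl hydrocarbon receptor (AHR), were measured by RNA-sequencing in 46C mESCs, a mouse ESC line that carries a GFP reporter at the *Sox1* locus. The cells were kept in serum-containing medium for 24 h as no treatment (NT) controls, labelled control medium (2 samples), or received Go6983, which inhibits protein kinase C, at 5 μM (2 samples). The labels do not say whether the control medium held the solvent of the inhibitor, whether LIF was present, or whether the samples of a group were separate cultures. The p-values given here therefore measure only the spread between these samples. The 2 genes were matched by gene ID among the 1577 genes of the authors' deposited table, and both were chosen from the Go6983 against NT values of that table. The table lists only genes that differ by 2-fold or more (the smallest absolute log2 difference between group means is 1.00). The levels of *Cyp1a1* and *Ahrr* are therefore given as a description, with their spread and without a test. The deposited log2 values are read counts divided by a size factor per sample, plus 1. Read in this way, every value of each sample came out as whole reads, within 0.05 of a read. The listed genes held between 859777 and 1054236 reads per sample, and the total depth is unknown.

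AHR is a ligand-activated transcription factor of the bHLH-PAS family. Without a ligand it rests in the cytoplasm with the chaperone Hsp90 and its cochaperone p23. On binding a ligand it enters the nucleus, pairs with Arnt and binds xenobiotic response elements (XREs), whose core reads GCGTG. *Cyp1a1* encodes a cytochrome P450 enzyme that oxidises polycyclic aromatic hydrocarbons and also clears natural AHR ligands. *Ahrr* encodes the AHR repressor, a bHLH-PAS protein that competes with AHR for Arnt and for XREs. Its induction by AHR is known as a negative feedback.

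*Cyp1a1* (ENSMUSG00000032315) lies on the plus strand of chromosome 9 of GRCm38, from 57687928 to 57703824, with 2 annotated transcripts that start at 57687928 and 57697613. *Ahrr* (ENSMUSG00000021575) lies on the minus strand of chromosome 13, from 74211118 to 74292331, with 7 annotated transcripts. The positions come from GENCODE M21, since the deposited table holds none and the submitters' processing notes name another build, mm9. The 250 bases before a RefSeq start of each gene (GRCm38.p6) are shown because the XRE core is the letters through which both genes are known to answer AHR. Capitals mark each GCGTG. The *Cyp1a1* window is chr9:57697363-57697612 on the plus strand, before the start of the shorter transcript, and the *Ahrr* window is chr13:74292332-74292581 on the minus strand.
Cyp1a1: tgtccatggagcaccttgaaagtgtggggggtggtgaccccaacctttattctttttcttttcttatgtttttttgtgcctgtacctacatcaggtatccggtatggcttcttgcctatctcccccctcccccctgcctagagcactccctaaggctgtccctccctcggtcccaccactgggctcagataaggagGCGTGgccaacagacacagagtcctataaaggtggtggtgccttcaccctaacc
Ahrr: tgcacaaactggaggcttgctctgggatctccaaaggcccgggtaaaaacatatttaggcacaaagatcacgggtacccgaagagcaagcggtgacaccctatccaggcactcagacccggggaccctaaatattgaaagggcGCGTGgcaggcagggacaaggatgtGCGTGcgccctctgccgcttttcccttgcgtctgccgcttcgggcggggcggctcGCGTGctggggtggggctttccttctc

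The *Cyp1a1* window held 1 copy of GCGTG, 54 to 50 bases before the start, and a TATAAA 30 to 25 bases before it. The *Ahrr* window held 3 copies of GCGTG, of which the copy nearest to the start lay 27 to 23 bases before it and was the only one within the longer form TNGCGTG. All 4 copies were on the strand of the gene, and the *Ahrr* window held no TATAAA. The 2 forms of the XRE core were searched on both strands, the longer form containing the shorter, and TATAAA on the strand of the gene. Of 32851 RefSeq windows of 250 bases, 28.2% held GCGTG at least once, 2.77% held it 3 or more times, 4.10% held TNGCGTG and 7.59% held TATAAA. The windows of genes in the deposited table gave 33.6% for GCGTG, 3.44% for 3 or more copies of it and 4.85% for TNGCGTG. The windows were not matched for GC content, which was 53.6% for *Cyp1a1* and 60.4% for *Ahrr*. A single copy such as that of *Cyp1a1* was thus common, and 3 copies were not. The enhancer best known for the AHR response of *Cyp1a1* lies further upstream than this window. A match of letters is a description and does not show that a factor is bound.

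*Cyp1a1* had 52 and 46 reads in NT replicates 1 and 2 and 194 and 222 reads in Go6983 replicates 1 and 2. After scaling, these were 51.7 and 47.0 normalized counts for NT, against 181 and 238 for Go6983. Each Go6983 sample lay above both NT samples, as was the case in 69.6% of all listed genes. The 95% Poisson intervals, which cover counting error only, ran from 34.4 to 67.8 normalized counts over the NT samples and from 157 to 271 over the Go6983 samples. The group means were 49.4 ± 3.33 normalized counts for NT against 209 ± 40.0 for Go6983 (SD, n = 2 each), a ratio of 4.24. On the deposited log2 scale the Go6983 minus NT difference was 2.05 (limma standard error 0.23). Over the 4 sample-to-sample comparisons it ranged from 1.79 to 2.31.

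*Ahrr* had 44 and 36 reads in NT replicates 1 and 2 and 171 and 121 reads in Go6983 replicates 1 and 2. These corresponded to 43.8 and 36.8 normalized counts for NT, against 160 and 130 for Go6983. Again the Go6983 samples were both higher than the NT samples, without overlap. The 95% Poisson intervals spanned 25.8 to 58.7 normalized counts in the NT samples and 107 to 185 in the Go6983 samples. The repressor gene had a mean of 40.3 ± 4.93 normalized counts for NT against 145 ± 21.3 for Go6983 (SD, n = 2 each), a ratio of 3.59. Its log2 difference was 1.82 (limma standard error 0.25), and 1.54 to 2.09 over the 4 sample-to-sample comparisons. Both values depend on the authors' scaling, which the listed genes alone cannot check. With libraries scaled to their median ratio in the table, the log2 differences were 0.94 for *Cyp1a1* and 0.71 for *Ahrr*. That scaling by construction centres a table of selected genes, most of them higher with Go6983. It shifted the log2 differences by a median of -1.10, here and wherever it is used below. In RNA from whole cultures, more cells that express a gene and more RNA per cell cannot be told apart.

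**Figure D1:**
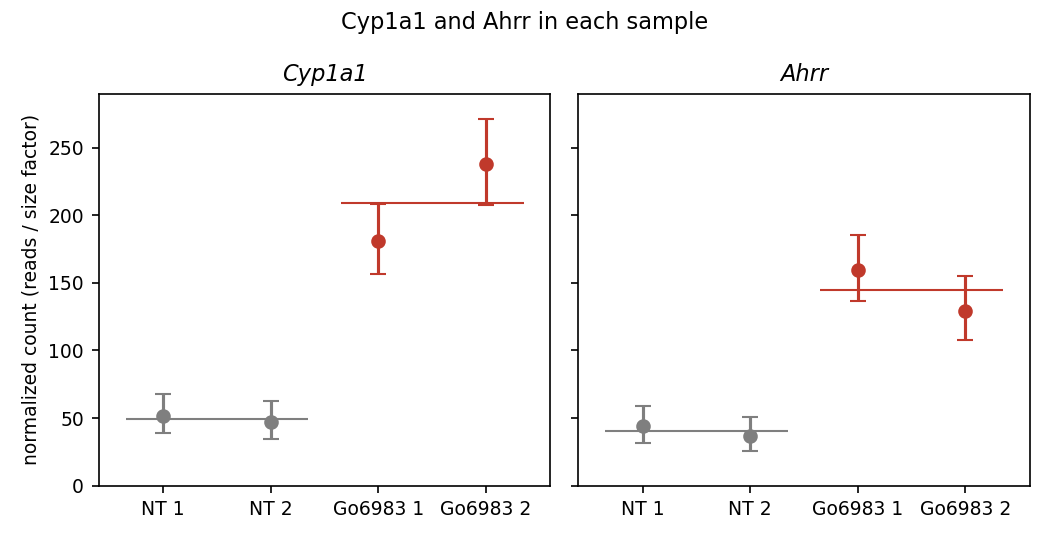
Normalized counts (vertical axis, reads divided by the size factor) of *Cyp1a1* (left) and *Ahrr* (right) by group, with 2 samples of NT in grey and 2 of Go6983 in red. Points are samples, bars are 95% Poisson intervals of the reads, and horizontal lines are group means. The Go6983 samples sit at 181 and 238 for *Cyp1a1* and at 160 and 130 for *Ahrr*, all above the NT samples.

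The 2 genes ordered the Go6983 samples differently. *Cyp1a1* was higher in Go6983 replicate 2 and *Ahrr* in Go6983 replicate 1. Of the reads of both genes together, *Cyp1a1* took 53.2% in Go6983 replicate 1 (194 of 365 reads, exact 95% binomial interval 47.9% to 58.4%) and 64.7% in Go6983 replicate 2 (222 of 343, interval 59.4% to 69.8%). The intervals cover counting error only, and Go6983 replicates differed by more than counting error over the listed genes (chi-square per gene 7.36), so the order of the samples is a description. In NT replicates 1 and 2 the share was 54.2% (52 of 96, interval 43.7% to 64.4%) and 56.1% (46 of 82, interval 44.7% to 67.0%). A share within a sample does not depend on how the libraries were scaled. The log2 difference of *Cyp1a1* exceeded that of *Ahrr* by 0.24. Without Go6983 replicate 1 the excess was 0.58, and without Go6983 replicate 2 it was -0.11, so which gene differed more between the groups rested on a single Go6983 sample.

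Per length, *Cyp1a1* was the more abundant of the pair in each sample. Divided by the exons of its protein-coding transcripts (2787 bases), its level was 18.6 and 16.9 normalized counts per kb for NT and 65.0 and 85.3 for Go6983. *Ahrr*, with 4754 bases, had 9.20 and 7.74 normalized counts per kb for NT and 33.6 and 27.2 for Go6983. Of the 36-base stretches of the *Cyp1a1* transcripts, a length chosen here, 4.91% were also found in another annotated gene, and that gene was *Cyp1a2*, its closest relative. For *Ahrr* the figure was 0.00%. Some *Cyp1a1* reads may therefore have come from *Cyp1a2*, and how the authors' counter treated shared reads is not given in the sources used here.

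Neither gene overlapped another annotated gene. *Cyp1a2*, which encodes the other CYP1A enzyme, lies 4224 bases to the left of *Cyp1a1* on the opposite strand, and *Edc3*, a gene of mRNA decapping, 4715 bases to its right. *Ahrr* has *Exoc3*, an exocyst subunit gene, 2385 bases to its left and *Pdcd6*, a calcium-binding protein gene, 11177 bases to its right, both on the minus strand as *Ahrr* is. None of these 4 neighbours was in the deposited table, nor was any of the 23 genes within 300 kb of *Cyp1a1* or the 32 within 300 kb of *Ahrr*. *Cyp1a1* and *Ahrr* were thus each the sole listed gene within 300 kb. How often a gene of the table has no listed neighbour at this distance was not computed. The counts of neighbours are therefore a description and do not set these places apart from others.

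Among all genes of the table, 68.9% were called higher and 29.7% lower with Go6983, at a limma p of 0.05 or less and 2-fold or more. Under the median-ratio scaling, 177 genes were called higher and 476 lower, in place of 1086 and 469. The table was made on this same contrast, so the direction of these 2 genes says little on its own. The limma p-values of other listed genes given below come from that contrast too. They are likely too small and are given as a description. Ordered by the signed log2 difference, from the largest rise with Go6983 down, *Cyp1a1* ranked 216 and *Ahrr* 287 of 1577. Genes lower with Go6983 come last in this order, whatever the size of their fall. Most genes that ranked above them had a lower mean level. In the same order, *Cyp1a1* ranked 19 among the 550 genes with a mean level at or above its own. *Ahrr* ranked 45 among the 663 genes at or above its level. The median log2 difference of all listed genes was 1.21.

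**Figure D2:**
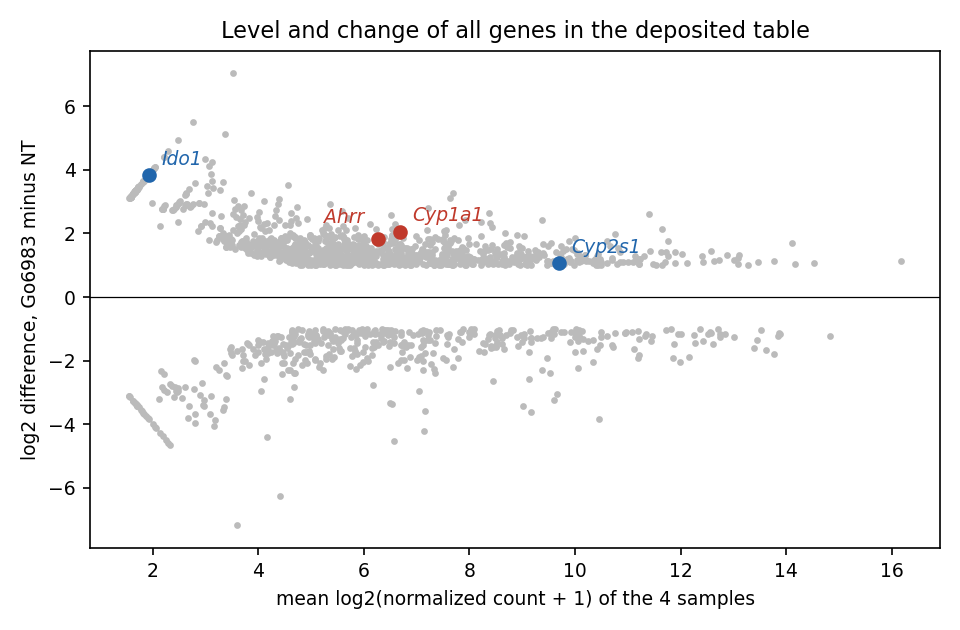
Log2 difference between Go6983 and NT cells (vertical axis) against the mean log2(normalized count + 1) of the 4 samples (horizontal axis) for the 1577 listed genes, each point a gene. *Cyp1a1* and *Ahrr* (red) sit at 2.05 and 1.82, and *Ido1* and *Cyp2s1* (blue) at 3.84 and 1.07. No gene lies between -1 and 1, since the table lists only genes past 2-fold.

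Of 35 other genes in lists of the AHR core pathway, the AHR gene battery and other reported AHR targets, 2 were in the table, *Ido1* and *Cyp2s1*. Both were called higher and none lower, against 68.9% of all listed genes called higher. The share of all annotated genes that is listed was not computed. How many genes of this list and the later ones are listed is therefore a description. The other 33 have no value in the table and were not analysed here. They include the receptor gene *Ahr*, its partner *Arnt*, the feedback gene *Tiparp*, an ADP-ribosyltransferase that restrains AHR, and the battery enzymes *Cyp1a2*, *Cyp1b1*, *Nqo1* and *Aldh3a1*.

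*Ido1* encodes indoleamine 2,3-dioxygenase, which starts the breakdown of tryptophan to kynurenine, a natural AHR ligand. It had 0 reads in both NT samples and 11 and 16 reads in the Go6983 samples. Its mean in Go6983-treated cells, 13.7 ± 4.85 normalized counts (SD, n = 2), was 9.06-fold above an assumed floor of 3 reads over the NT group. This ratio leaves out the error of the Go6983 mean and is not a lower bound. The limma adjusted p was 0.000488, from the same contrast that put the gene in the table. *Ido1* thus had few reads even in the Go6983 samples.

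*Cyp2s1*, a P450 gene known to respond to dioxin through AHR, had 521 and 631 normalized counts for NT, against 1272 and 1136 for Go6983. Both Go6983 samples lay above both NT samples, as in 69.6% of all listed genes. *Cyp2s1* was far more abundant in counts than *Cyp1a1* in both groups. Its log2 difference was 1.07 (standard error 0.14, limma adjusted p = 0.00110), and turned to -0.056 under the median-ratio scaling. It was 0.93 without NT replicate 1 and 0.98 without Go6983 replicate 1, which is under 2-fold. The 250 bases before its RefSeq start held 0 copies of GCGTG, where 28.2% of all RefSeq windows held at least 1. Bases outside this window were not searched, so the count does not bear on whether AHR acts on *Cyp2s1*. No window of *Ido1* is reported.

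Of 22 genes of the bHLH-PAS family and its coactivators, 4 were in the table. Beside *Ahrr*, the neuronal factor gene *Npas3* and the Clock relative *Npas2* were called higher and the circadian repressor gene *Per2* lower. Among all listed genes 68.9% were called higher and 29.7% lower, so these 4 calls are a description. *Npas3* had 17.9 and 10.2 normalized counts for NT and 48.5 and 38.5 for Go6983 (limma adjusted p = 0.0122). *Npas2* had 14.9 and 11.2 against 36.4 and 35.3 (limma adjusted p = 0.0120). *Per2* had 374 and 294 normalized counts for NT and 168 and 162 for Go6983 (limma adjusted p = 0.00310). Each of these 3 genes had an adjusted p above 0.05 when certain single samples were left out. Under the median-ratio scaling the log2 difference was 0.33 for *Npas2* (limma adjusted p = 0.570) and 0.53 for *Npas3* (limma adjusted p = 0.414). The limma adjusted p was 0.0656, 0.128 and 0.103 for *Npas3* without NT replicate 2, Go6983 replicate 1 and Go6983 replicate 2, and 0.0580, 0.0901 and 0.0878 for *Npas2* without the same samples. For *Per2* it was 0.0603 and 0.0676 without Go6983 replicates 1 and 2.

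Of 99 annotated cytochrome P450 genes, 8 were in the table, with 4 called higher and 4 lower, against 68.9% higher and 29.7% lower among all listed genes. The median log2 difference of these 8 was -0.06, against 1.21 for all listed genes. With 4 genes each way and none under 2-fold, this median falls between the higher and the lower genes and is the value of no gene. Under the median-ratio scaling, 0 of the 7 other than *Cyp1a1* were called higher and 4 lower. *Cyp1a1* differed the most of the 4 higher genes. *Cyp27a1*, the mitochondrial sterol 27-hydroxylase gene, rose from 331 and 368 normalized counts to 703 and 717 (limma adjusted p = 0.000781), and its log2 difference turned to -0.098 under the median-ratio scaling. *Cyp46a1*, the cholesterol 24-hydroxylase gene, rose from 43.8 and 35.8 to 84.9 and 93.1 (limma adjusted p = 0.00847), and its log2 difference was 0.045 under the median-ratio scaling (limma adjusted p = 0.933). Its NT level was close to that of *Cyp1a1*, and its Go6983 samples lay below those of *Cyp1a1*.

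Of the 4 lower P450 genes, *Cyp2j13* and *Cyp2c69* belong to the CYP2 family, as the higher gene *Cyp2s1* does. *Cyp2j13* fell from 389 and 317 normalized counts to 80.3 and 107 (limma adjusted p = 0.000664). *Cyp4x1* fell from 65.6 and 41.9 to 14.9 and 6.42 (limma adjusted p = 0.00765), and *Cyp2c69* from 70.6 and 74.6 to 28.0 and 9.63 (limma adjusted p = 0.0119). *Cyp2c69* and *Cyp4x1* had at most 30 reads in a Go6983 sample. *Cyp3a13*, of the CYP3A family known as targets of the pregnane X receptor, fell from 47.7 and 29.6 to 16.8 and 16.1 (limma adjusted p = 0.0288). Leaving out a sample moved several of these past 0.05. The largest limma adjusted p was 0.107 for *Cyp46a1* (without Go6983 replicate 2), 0.0967 for *Cyp4x1* (without Go6983 replicate 2), 0.111 for *Cyp2c69* (without NT replicate 2) and 0.178 for *Cyp3a13* (without Go6983 replicate 2).

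**Figure D3:**
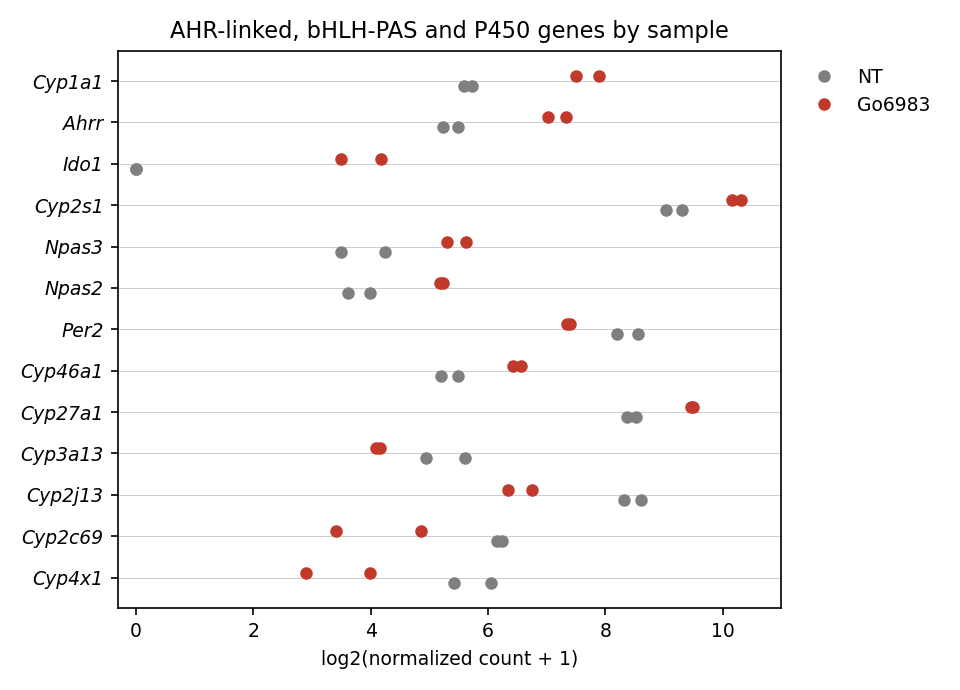
Log2(normalized count + 1) (horizontal axis) of *Cyp1a1*, *Ahrr* and 11 other AHR-linked, bHLH-PAS and P450 genes by sample, NT in grey and Go6983 in red. For *Ido1* both NT samples lie at 0. The Go6983 samples lie to the right of the NT samples for 8 genes and to the left for *Per2*, *Cyp3a13*, *Cyp2j13*, *Cyp2c69* and *Cyp4x1*.

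Enzymes of other steps of xenobiotic metabolism were counted in the same way, beside the same 68.9% of all listed genes called higher. Of 22 UDP-glucuronosyltransferase genes and 21 aldehyde dehydrogenase genes, 0 were in the table. Of 25 glutathione S-transferase genes *Gstt1* was called higher, from 93.5 and 134 to 235 and 217 normalized counts (limma adjusted p = 0.00762), and of 21 sulfotransferase genes *Sult1a1*, a phenol sulfotransferase gene, from 7.96 and 6.13 to 29.9 and 19.3 (limma adjusted p = 0.0114). The limma adjusted p was 0.108 and 0.0980 for *Gstt1* without Go6983 replicates 1 and 2, and 0.0662 and 0.0544 for *Sult1a1* without NT replicate 2 and without Go6983 replicate 1. Of 10 targets of Nrf2, the oxidative stress factor, and 13 targets of the hypoxia factors that also pair with Arnt, 0 were in the table. Of 11 genes of the pregnane X receptor and CAR pathway, *Cyp3a13* alone was listed. Genes absent from the table have no value here and were not analysed here.

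Of 10 pluripotent cell markers, 4 were in the table, each with at least 6833 reads in every sample. *Nanog*, *Klf4* and *Tfcp2l1* were called higher and *Utf1* lower, against 68.9% higher and 29.7% lower among all listed genes. The other 6, *Pou5f1* and *Sox2* among them, were not analysed here. Of the markers of other cell types, 0 of 7 for hepatocytes and 0 of 8 for primitive endoderm were listed. A marker that differed by less than 2-fold is not listed at any level. These counts therefore do not show which cell types were present or absent. Of 8 fibroblast markers *Col1a2* was listed, with 31.8 and 40.9 normalized counts for NT and 78.4 and 82.4 for Go6983, and of 8 trophoblast markers *Tfap2c*, with 1486 and 1364 against 3326 and 3708. Both were called higher with Go6983, though the limma adjusted p of *Col1a2* was 0.104 and 0.118 without Go6983 replicates 1 and 2, and their part in the result was not tested.

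The genes most like each of the pair were sought by the Euclidean distance between the 4 log2 values, each centred on the gene's own mean, among genes within 4-fold of its mean level. For *Cyp1a1*, of 823 genes compared, the nearest were *Ltbp3*, a latent TGF-β binding protein gene (distance 0.19), *Ceacam10* (0.23), *BC051142* (0.23), *Fam189a2* (0.24), *Gch1*, the first enzyme of tetrahydrobiopterin synthesis (0.27), and *2510009E07Rik* (0.29). *Ltbp3* went from 202 ± 7.55 to 820 ± 51.0 normalized counts and *Gch1* from 80.0 ± 13.4 to 286 ± 43.2 (SD, n = 2 each). For *Ahrr*, of 906 genes compared, they were *Otog*, which encodes otogelin (0.068), *9330102E08Rik* (0.073), *Cfap54*, a cilia gene (0.12), *Sdk1*, a cell adhesion gene (0.14), *Unc5a*, a netrin receptor gene (0.18), and *Cela1*, an elastase gene (0.19). *Otog* went from 55.4 ± 4.64 to 203 ± 26.3 normalized counts. The 2 lists shared no gene. The median distance was 1.04 from *Cyp1a1* and 0.87 from *Ahrr*. With 0.55 between them, *Ahrr* was the gene of rank 72 from *Cyp1a1*, and *Cyp1a1* that of rank 128 from *Ahrr*. Likeness over 4 samples of 2 groups rests on the size of the difference and on the order of the replicates.

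**Figure D4:**
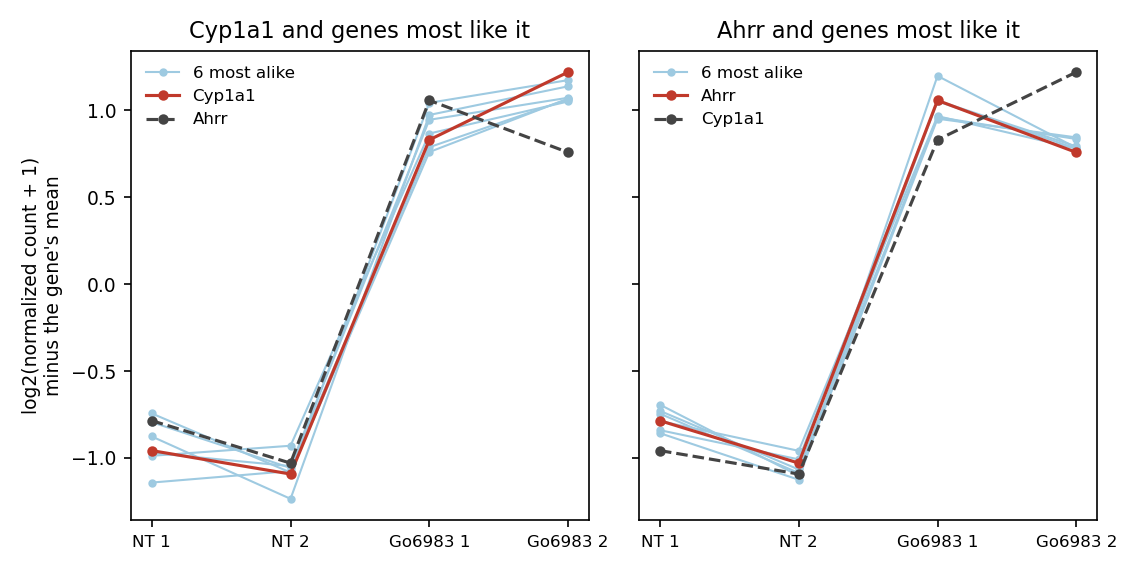
Log2(normalized count + 1) minus the gene's own mean (vertical axis) in the 4 samples for *Cyp1a1* (left, red) and *Ahrr* (right, red), the 6 genes most like each (light blue) and the other gene of the pair (dashed). Lines join the values of 1 gene and imply no order of the replicates. In the Go6983 samples *Cyp1a1* is higher in replicate 2 and *Ahrr* in replicate 1.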

How the data were processed

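The expression of *Cyp1a1*, *Ahrr* and the genes around them was taken from the table of 1577 genes that the authors deposited for 2 NT and 2 Go6983 samples. The authors deposited log2 values, which are log2 of the read count divided by a size factor (1.0055 and 0.9786 for NT, 1.0712 and 0.9342 for Go6983) plus 1. Bowtie 0.12.2 and the build mm9 are named by the submitters' processing notes. No source used here names the counter or the normalization tool. The table also holds group means and the authors' own fold changes, p-values and adjusted p-values, which were not used. Gene IDs were paired with symbols from GENCODE M21 for 1572 genes.

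The log2 values were fitted as deposited with limma 3.58.1 in R 4.3.3 (lmFit, eBayes with trend), with no block term. Benjamini-Hochberg adjustment was over the 1577 genes. All of these genes had been selected as changed on the same samples, so the p-values (3.635 prior and 2 residual degrees of freedom) are likely too small. A gene was called at a p of 0.05 or less and 2-fold or more. Fold changes on this scale understate those of genes with few reads. The chi-square per gene between replicates was 10.5 for NT and 7.36 for Go6983, above counting error. The limma fit was also run on simulated counts in which most genes were unchanged. The listed genes were all selected as changed, so that run does not show how the fit behaves on them. Exact intervals were computed with scipy 1.17.1, and figures were drawn with matplotlib 3.10.9. Promoter windows came from RefSeq (GRCm38.p6).

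The genes named were *Cyp1a1*, *Ahrr*, listed genes of the AHR, bHLH-PAS, Nrf2, pregnane X receptor and hypoxia lists, all listed P450 genes, the 6 genes most like each of the pair and their neighbours. *Gstt1*, *Sult1a1* and the cell type markers were named for their lists. The 2 genes and the lists were chosen with earlier results of these data known, and the motifs after the values were seen. The alternatives tried were pseudocounts of 0.1 and 5, another scaling, a filter at a mean of 10 normalized counts, leaving out single replicates, a block by replicate number, limma without trend and limma-voom on the recovered reads.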

Additional observations from a re-analysis of the deposited data

How the results depend on the processing

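The log2 difference of *Cyp1a1* stayed between 1.86 and 2.25 and that of *Ahrr* between 1.67 and 1.97 when each sample was left out in turn. Pseudocounts of 0.1 and 5 gave 2.07 and 1.97 for *Cyp1a1* and 1.84 and 1.72 for *Ahrr*. Scaling by the median ratio of the listed genes, which by construction centres the selected table and shifted all genes by a median of -1.10 on the log2 scale, put *Cyp1a1* at 0.94 and *Ahrr* at 0.71. In that setting 177 genes were called higher, *Cyp2s1* and *Cyp27a1* turned to -0.056 and -0.098, 1 other AHR-linked gene was called higher, and 0 of the P450 genes other than *Cyp1a1* were. With the filter on low values, which removes *Ido1*, 1 other AHR-linked gene was called higher. With single samples left out, the excess of *Cyp1a1* over *Ahrr* ranged from -0.11 to 0.58, the genes called higher from 614 to 863 (628 and 614 when Go6983 replicates 1 and 2 were left out), the other AHR-linked genes called higher from 1 to 2, and the P450 genes other than *Cyp1a1* from 1 to 3 higher and from 1 to 3 lower. Without NT replicate 1 or Go6983 replicate 1, 1 other AHR-linked gene and 1 P450 gene other than *Cyp1a1* were called higher. Of P450 genes, 1 was called lower without NT replicate 1 and 2 without Go6983 replicate 2. The groups then hold 1 and 2 samples, and the lone sample is assumed to vary like the others.

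Same-numbered samples were not shown to be pairs (correlation of their deviations from the group means 0.032 over genes, with 2 pairs). With the replicate number as a block the standard error was 0.23 for *Cyp1a1* and 0.22 for *Ahrr*, 1073 genes were called higher and 466 lower, and no call changed among the AHR, bHLH-PAS and P450 genes named. The AHR-linked genes that were not listed, *Ahr* itself included, and the unknown total depth limit what can be said of the pathway.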
